A study of Rattus norvegicus with 8 samples.

Results

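In primary rat nucleus pulposus (NP) cells with SIRT6 knocked down, 41 of 13543 named genes (0.303%) went from a mean of fewer than 10 normalised reads in the control cells to at least 20 in every knockdown library. These genes are described here by class, by the tissue in which they are usually studied and by library. A normalised read count is the number of reads on a gene divided by a size factor that puts the libraries on a common depth. The genes were chosen by the mean normalised count in the control libraries and the lowest count in the knockdown libraries, so their difference between the groups is given as a description, without a test.

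The NP is the soft centre of the intervertebral disc. NP cells of adult Sprague Dawley rats received lentivirus with either a control ShRNA, which made the 4 Sirt6-Ctrl libraries, or ShSirt6 as an equal mixture of several clones, which made the 4 Sirt6-KD libraries. Both groups were thus exposed to virus, and the knockdown was no clonal line. The paper describes puromycin medium after transduction but does not give the share of cells transduced. RNA-seq gave 31994838 to 40124813 counted reads per library. The libraries are numbered 1 to 4 within each group as names only. The series record speaks of cells from 4 rats and of their respective controls, so the groups may share animals, but no label ties a library to a rat and the tests are unpaired. The paper describes the RNA-seq as 4 independent experiments. How much of the spread between libraries is technical cannot be read from the labels.

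SIRT6 is a deacylase of the nucleus that removes acetyl groups from histone H3 and keeps many promoters quiet. Genes of other lineages are normally held silent in a differentiated cell, and a low read count on such a gene may come from few cells or from few transcripts per cell. In bulk RNA these cannot be told apart, and the same holds for the higher counts after knockdown.

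The targeted gene was lower in every library labelled Sirt6-KD. Sirt6 had 1964, 1755, 1782 and 1962 reads in Sirt6-Ctrl 1 to 4 and 753, 702, 738 and 695 in Sirt6-KD 1 to 4. Over all genes, 1063 of 13250 genes tested (8.02%) were called higher in Sirt6-KD and 1416 (10.7%) lower by edgeR's quasi-likelihood test (called where the fold change exceeded 1.5 and the adjusted p was under 0.05). The NP identity of the culture was only partly visible. Among the NP and notochord genes looked for, 8 had a named row. Acan, the core protein of aggrecan, had a mean of 723 in Sirt6-Ctrl and 477 in Sirt6-KD, and Sox9, a transcription factor of cartilage and NP, had 272 and 385; neither was called. Krt8, a keratin of notochordal cells, and Car3, a carbonic anhydrase, were called lower (log2 difference -1.32, SE 0.41, edgeR adjusted p = 0.044, and -2.70, SE 0.59, adjusted p = 0.013). Car12 had means of 976 in Sirt6-Ctrl and 2843 in Sirt6-KD, Foxa1 8.25 and 31.4, and Foxa2 11.9 and 33.9. Cd24 had 1295 and 666, and none of these was called. Genes of the list thus differed in both directions, with a median log2 difference of -0.07. Tbxt, Krt18, Krt19, Shh, Noto and Col2a1 had no row under their names. Car3 was called in all 8 fits with 1 library left out and Krt8 in 3.

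**Figure D1:**
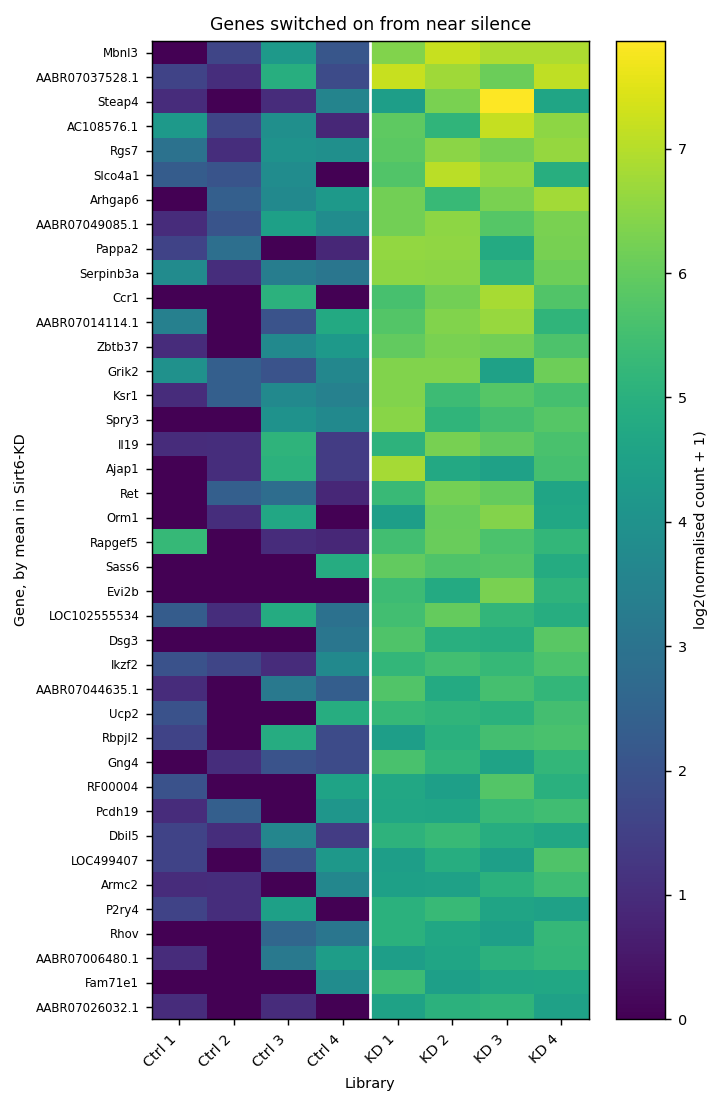
Heat map of log2(normalised count + 1) for the 41 genes but 1 (rows, ordered by the mean in Sirt6-KD) in the 4 Sirt6-Ctrl and 4 Sirt6-KD libraries (columns). The Sirt6-KD columns are filled in every row, while Sirt6-Ctrl 1 and 2 are darkest and most of the lighter control cells lie in Sirt6-Ctrl 3 and 4.

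The control libraries were not alike in these genes. The summed normalised count of the 41 genes was 137, 51.5, 437 and 372 in Sirt6-Ctrl 1 to 4 and 2094, 2236, 2334 and 2046 in Sirt6-KD 1 to 4. The limits capped the control mean and set a floor for each Sirt6-KD library, so the gap between the groups follows from the choice of genes. The floor trims low Sirt6-KD values but no ceiling was set, and its part in the evenness of the Sirt6-KD sums was not tested. Within Sirt6-Ctrl the sums spread 8.49-fold. Spike-in RNA, synthetic transcripts added to each sample, took 6.27% and 9.80% of the reads in Sirt6-Ctrl 1 and 2, 3.08% and 2.97% in Sirt6-Ctrl 3 and 4, and 2.15% to 2.47% in Sirt6-KD. Named genes with 0 reads numbered 370, 614, 165 and 153 in Sirt6-Ctrl 1 to 4 and 88 to 184 in Sirt6-KD. Sirt6-Ctrl 1 and 2 therefore stood apart in spike-in share and in undetected genes as well as in the 41 genes, and the part of this in their low control level was not tested. With those 2 libraries left out, the same limits gave 33 genes, of which 19 were among the 41.

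**Figure D2:**
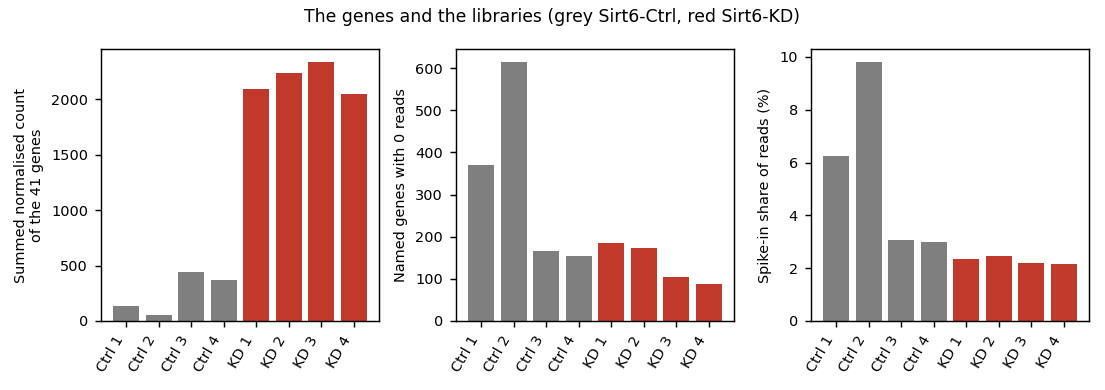
Bars give, for each library (grey Sirt6-Ctrl, red Sirt6-KD), the summed normalised count of the 41 genes, the number of named genes with 0 reads and the spike-in share of reads in percent. The sums are 2046 to 2334 in Sirt6-KD and at most 437 in Sirt6-Ctrl, and Sirt6-Ctrl 1 and 2 are highest in both other panels.

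For most of the genes the larger part of the control signal lay in a single library. One Sirt6-Ctrl library held over 50% of the control signal in 35 of the 41 genes, which was Sirt6-Ctrl 3 in 16, Sirt6-Ctrl 4 in 16, Sirt6-Ctrl 1 in 2 and Sirt6-Ctrl 2 in 1. It held over 80% in 15 genes. At least 1 control library was at 0 reads in 30 genes, and at most 3 reads were seen in both Sirt6-Ctrl 1 and 2 in 28 genes and in both Sirt6-Ctrl 3 and 4 in 5. Only 8 genes were below 10 in every Sirt6-Ctrl library. The groups did not overlap in 34 genes and overlapped in 7 (Il19, Ajap1, Orm1, Rapgef5, Sass6, Rbpjl2 and RF00004). Over all named genes, 14.9% had every Sirt6-KD library above every Sirt6-Ctrl library, and since the limits on the 2 groups chose the 41, nothing is read from that difference.

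**Figure D3:**
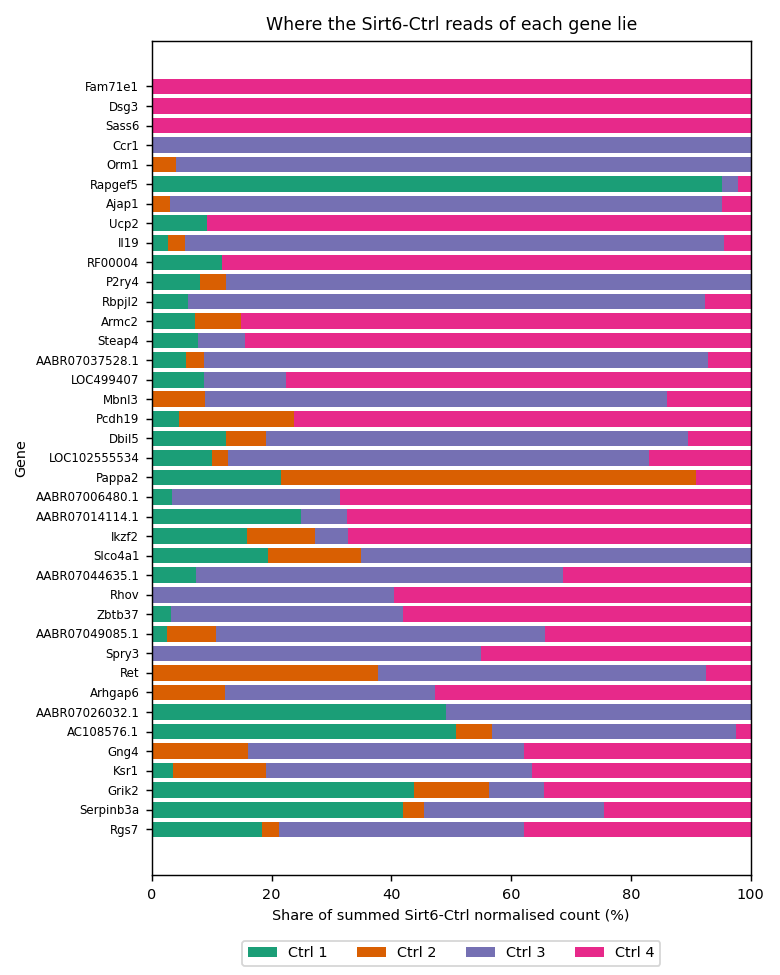
Stacked bars give the share (percent) of each gene's summed Sirt6-Ctrl normalised count that lay in each of the 4 control libraries, for the genes with any control read but 1. Sirt6-Ctrl 3 or 4 fills over 50% of most bars, and a single library fills all of it for Ccr1, Dsg3, Sass6 and Fam71e1.

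The Sirt6-Ctrl means ran from 0 to 9.85 (median 6.60) and the Sirt6-KD means from 27.5 to 116 (median 48.5). The ratio of the means ran from 3.86 to 55.0, with a median of 8.25 over the 40 genes with control reads. Within Sirt6-KD the coefficient of variation was 14% to 113% (median 33.4%). The highest Sirt6-KD library was under 2 times the lowest in 19 genes and over 3 times in 8. These are read counts that were not divided by gene length, so they order no gene above another.

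A pair of genes had almost no control read. Evi2b, a membrane protein of blood cells, had 0 reads in all 4 Sirt6-Ctrl libraries and normalised counts of 41.4, 26.9, 77.2 and 33.7 in Sirt6-KD 1 to 4. Against a floor of 3 reads per control library this is at least 15.4-fold higher. Evi2b lies within the span of Nf1, on the opposite strand in the RefSeq annotation, and whether the counting used strand is not given in the sources used here, so reads of both genes may not be separable. In all, 31 of the 41 matched a RefSeq gene, and 15 of these 31 overlapped another RefSeq gene. The share over all genes was not counted. For 2 of the 15, Evi2b with Nf1 and Sass6 with Trmt13, the other gene had a named row and lay on the opposite strand. Nf1, a brake on RAS, was called higher (log2 difference 1.35, SE 0.38, edgeR adjusted p = 0.0313), though in 3 of the 8 fits with 1 library left out. AABR07026032.1, a provisional locus, had 2 control reads in all, and its normalised counts in Sirt6-KD 1 to 4 were 22.2, 32.1, 34.1 and 21.4. The ratio of its summed counts was 57.5 (exact 95% interval 15.6 to 481, counting error only). The same counts chose both genes, so this interval and the floor used for Evi2b describe read numbers and test no difference.

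Of the 41 genes, 30 had an established symbol, 9 were provisional loci and 2 were a pseudogene or an RNA family locus. Provisional loci made up 22.0% of the 41 and 10.9% of all named genes. Tissues were assigned by hand from general knowledge after the genes were known. They came to nervous system for 5, blood and immune cells for 4, testis for 3, stratified epithelium for 2, and liver and placenta for 1 each, with none assigned for 24. No single tissue held most of the genes.

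Receptors and G protein signaling gave 5 genes. Rgs7, which speeds the shut-off of G proteins in neurons, had 6.87, 1.05, 15.2 and 14.1 in Sirt6-Ctrl 1 to 4 and 57.5, 90.1, 75.4 and 97.0 in Sirt6-KD 1 to 4. Its groups were apart, and its control reads were spread over several libraries. Ccr1, a chemokine receptor of leukocytes, was at 0 in 3 control libraries and at 32.5 in Sirt6-Ctrl 3, against 46.4, 71.5, 114 and 52.1 in Sirt6-KD. The others were Ret, the receptor tyrosine kinase of the GDNF family (mean 2.78 in Sirt6-Ctrl and 49.8 ± 22.6 in Sirt6-KD, SD, n = 4), Gng4, a G protein gamma subunit (1.65 and 34.9 ± 10.2), and P2ry4, a nucleotide receptor (6.08 and 28.6 ± 7.76). The GDNF ligand itself, Gdnf, had means of 209 in Sirt6-Ctrl and 510 in Sirt6-KD and was not called (edgeR adjusted p = 0.226).

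Channels, transporters and oxidoreductases gave 4 genes. Steap4, a metalloreductase of iron and copper, had 0.982, 0, 1.01 and 10.8 in Sirt6-Ctrl 1 to 4 and 20.2, 76.6, 233 and 23.5 in Sirt6-KD 1 to 4. Its Sirt6-KD libraries spread most of all (coefficient of variation 113%), with Sirt6-KD 3 far above the rest. Slco4a1, an organic anion transporter, had 3.93, 3.15, 13.2 and 0 in Sirt6-Ctrl and 52.5, 131, 96.1 and 29.6 in Sirt6-KD. Grik2, a kainate receptor subunit of neurons, had means of 8.40 and 63.4 ± 28.6, and Ucp2, a mitochondrial carrier, 8.0 and 37.0 ± 5.83, the latter with 90.8% of its control signal in Sirt6-Ctrl 4.

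Secreted proteins and the serpin gave 4 genes. Pappa2, a protease that cleaves IGF binding proteins and is abundant in placenta, had 1.96, 6.30, 0 and 0.830 in Sirt6-Ctrl 1 to 4 and 94.8, 94.3, 26.9 and 74.6 in Sirt6-KD 1 to 4. Its groups were apart, and it was the only one of the 41 with most of its control signal in Sirt6-Ctrl 2. Serpinb3a, a clade B serpin of squamous epithelium, had 12.8, 1.05, 9.13 and 7.47 in Sirt6-Ctrl and 91.8, 89.1, 35.0 and 69.4 in Sirt6-KD. Il19, a cytokine of the IL-10 family, had 33.5 in Sirt6-Ctrl 3 and 33.3 in Sirt6-KD 1, so its groups touched. Orm1, an acute-phase protein of liver, reached 25.4 in Sirt6-Ctrl 3, above the 20.2 of Sirt6-KD 1.

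Adhesion genes numbered 3. Dsg3, a desmosomal cadherin of stratified epithelium and the only one of the 41 in the tissue lists, had control reads in Sirt6-Ctrl 4 alone (7.47) and 51.4, 30.04, 28.7 and 57.2 in Sirt6-KD 1 to 4. Pcdh19, a delta protocadherin of neurons, had means of 5.44 and 32.4 ± 9.82. Ajap1, which sits at adherens junctions, had 111 in Sirt6-KD 1 and 21.6 to 46.0 in the other Sirt6-KD libraries, against 32.5 in Sirt6-Ctrl 3.

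RNA- and DNA-binding proteins also gave 3. Mbnl3, a muscleblind regulator of splicing, had 0, 2.10, 18.3 and 3.32 in Sirt6-Ctrl 1 to 4 and 81.7, 146, 118 and 118 in Sirt6-KD 1 to 4. No control library came near the lowest Sirt6-KD library. Ikzf2 (Helios), a zinc finger factor of lymphocytes, had the smallest spread in Sirt6-KD (mean 41.6 ± 5.82, against 4.63 in Sirt6-Ctrl), and Zbtb37, a BTB zinc finger protein, had 7.85 and 65.5 ± 11.9.

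Control of small GTPases and of the ERK cascade gave 5. Arhgap6, a GTPase-activating protein, had 0, 4.20, 12.2 and 18.3 in Sirt6-Ctrl 1 to 4 and 72.6, 38.3, 76.3 and 109 in Sirt6-KD 1 to 4. Rapgef5, which activates Rap, had 37.3 in Sirt6-Ctrl 1 and at most 1.01 in the other controls, and that library exceeded Sirt6-KD 4 (35.7). Rhov, a small GTPase, had means of 3.13 and 28.4 ± 7.09. Ksr1, the scaffold that holds RAF, MEK and ERK together, had means of 6.83 and 55.7 ± 18.1, and Spry3, a Sprouty inhibitor of receptor tyrosine kinase signaling, 6.92 and 55.2 ± 23.2.

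The centriole and germ-cell genes were Sass6, which builds the centriole cartwheel, and Armc2, Dbil5 and Fam71e1 of the testis. Their Sirt6-KD means were 27.7 to 48.5, and in Sass6 and Fam71e1 every control read came from Sirt6-Ctrl 4. Among the provisional loci, AABR07037528.1 had 1.96, 1.05, 29.4 and 2.49 in Sirt6-Ctrl 1 to 4 and 147, 106, 67.3 and 138 in Sirt6-KD 1 to 4. AC108576.1 had 17.7, 2.10, 14.2 and 0.830 in Sirt6-Ctrl, and 59.5, 34.2, 144 and 91.9 in Sirt6-KD. AABR07049085.1 had 0.982, 3.15, 21.3 and 13.3, then 71.6, 91.1, 54.8 and 76.6. In each of these the groups were apart. AABR07014114.1 had 9.82, 0, 3.04 and 26.6 in Sirt6-Ctrl 1 to 4 and 53.5, 81.8, 99.7 and 34.7 in Sirt6-KD 1 to 4. The remaining provisional loci (LOC102555534, AABR07044635.1, LOC499407, AABR07006480.1) had Sirt6-KD means of 28.0 to 42.5. RF00004, named for an RNA family with near-identical copies, and Rbpjl2, a pseudogene of Rbpj, are uncertain because reads may be shared with other copies. Rbpj, the DNA-binding partner of Notch, was itself called higher (log2 difference 1.77, SE 0.33, edgeR adjusted p = 0.0073).

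At the limits, the means in Sirt6-Ctrl of AABR07014114.1, Rapgef5 and LOC102555534 were 9.85, 9.79 and 9.75, just inside, while Slc47a1, Ppargc1b and Cd274 lay just outside at 10.2, 10.5 and 10.6. The lowest Sirt6-KD library was 20.2 in Orm1, Steap4 and Rbpjl2, just inside, and 19.8, 19.7 and 19.7 in LOC100359752, AC099294.1 and AABR07068161.1, just outside. The limits thus cut through a run of similar genes. Inside the control limit, LOC102555534 had 3.93, 1.05, 27.4 and 6.64 in Sirt6-Ctrl 1 to 4 and 43.4, 63.2, 35.0 and 28.6 in Sirt6-KD 1 to 4, and Rapgef5 had 37.3, 0, 1.01 and 0.830, then 43.4, 66.3, 48.5 and 35.7. Outside it, Slc47a1, an organic cation exporter, had 22.6, 0, 14.2 and 4.15, then 49.4, 39.4, 91.6 and 33.7. Ppargc1b, a coactivator of mitochondrial genes, had 9.82, 2.10, 29.4 and 0.830, then 64.6, 62.1, 31.4 and 53.1, and Cd274, which encodes PD-L1, had 0, 2.10, 24.3 and 15.8, then 82.7, 20.7, 61.1 and 40.9. Inside the knockdown limit, Orm1 had 0, 1.05, 25.4 and 0, then 20.2, 65.3, 84.4 and 24.5, and Rbpjl2 had 1.96, 0, 28.4 and 2.49, then 20.2, 31.1, 44.9 and 48.0. In each of these 7 genes 1 control library was above 20 and the others below. Outside it, LOC100359752 had a single control value above 0 (0.830 in Sirt6-Ctrl 4), then 51.4, 30.04, 19.8 and 23.5. AC099294.1 had 4.91, 3.15, 15.2 and 14.9, then 43.4, 19.7, 53.0 and 24.5, and AABR07068161.1 had 1.96, 2.10, 9.13 and 0, then 26.2, 19.7, 20.7 and 21.4.

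Relatives and partners of the genes were then looked up. They were listed after the 41 were known, with results of these data already seen, so their counts are a description, and 79 that were not among the 41 were tested. Of these, 15 (19.0%) were called higher and 5 (6.33%) lower, beside 8.02% and 10.7% of all genes, and their median log2 difference was 0.55 against -0.02 over all genes. The 15 include Nf1, which was listed because it overlaps Evi2b and is counted again among the neighbours below. The Sprouty and Spred family, inhibitors of the ERK cascade, had 4 of its other 6 members called higher. These were Spred3 (log2 difference 1.59, SE 0.40, edgeR adjusted p = 0.021), Spred1 (1.42, SE 0.30, adjusted p = 0.0109), Spred2 (1.01, SE 0.28, adjusted p = 0.0306) and Spry2 (0.91, SE 0.16, adjusted p = 0.0064). Of 23 genes known as outputs of the ERK cascade, 17 were called higher and 0 lower, among them the Spreds, Spry2, Tgfa, Epha2, Fosl1 and Dusp6 (median log2 difference 1.01 over the 23), whereas the 7 RAF, MEK and ERK kinases tested had 0 called in either direction. Among the 17, fits with 1 library left out called Spred2 in 2 of 8, Hmga2 in 3, Ier3 in 4 and Spred3 in 6. With spike-in scaling Tgfa alone of the 17 was called. Higher calls were not limited to the ERK list. Of 19 NF-kappaB targets tested, 10 were called higher and 0 lower (median log2 difference 0.75). Of those 10, Nfkb1 was called in 4 of the 8 fits, and with spike-in scaling Cxcl2 alone was called. Of 9 AP-1 subunits tested, 3 were called higher and 2 lower.

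Steap2 and Steap3, relatives of Steap4, were called higher (1.72, SE 0.46, edgeR adjusted p = 0.0258, and 0.93, SE 0.26, adjusted p = 0.0304). Pappa1, the paralog of Pappa2, was called higher (1.79, SE 0.40, adjusted p = 0.0132), while Igfbp4 and Igfbp6 were called lower (-1.36, SE 0.17, adjusted p = 0.0017, and -1.34, SE 0.24, adjusted p = 0.0060). Pkp1, a desmosomal plaque protein, was called higher (1.41, SE 0.28, adjusted p = 0.0086). Pcdh7, Rapgef2, P2ry2, Gng8 and Gng12 were also called higher, and Gng10, Pspn and Dbi lower. The count of relatives called higher was 8 to 22 with 1 library left out, and with spike-in scaling, which shifted the median of all genes to 0.94, none of the 20 was called. That scaling brought Igfbp4 to -0.30, Igfbp6 to -0.15 and Dbi to -0.09, and turned Gng10 from -0.62 to 0.42. Of the 8 fits with 1 library left out, all called Spred1, Spry2, Pappa1, Igfbp4, Igfbp6, Pkp1, Rapgef2, Rbpj, Gng8 and Gng12, while 6 called Spred3, Pcdh7 and Dbi, 4 called Steap2, Steap3, P2ry2 and Gng10, and 2 called Spred2 and Pspn.

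**Figure D4:**
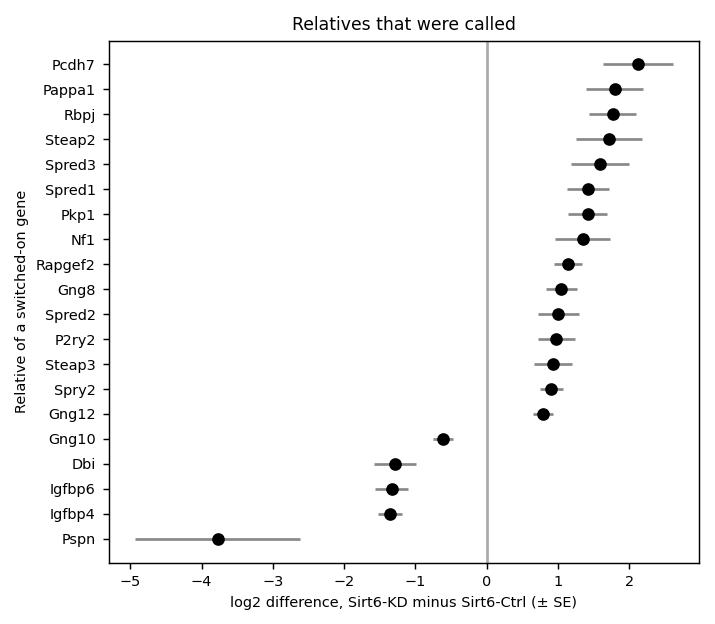
Points give the log2 difference (Sirt6-KD minus Sirt6-Ctrl, bars 1 SE derived from the edgeR fit) of the 20 relatives that were called. They include Nf1, the gene that overlaps Evi2b. The 15 called higher lie between 0.79 and 2.12, and the 5 called lower between -3.78 and -0.62.

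Markers of the tissues to which the genes were assigned were then looked up, beside 8.02% of all genes called higher and 10.7% lower. Each list had at most 12 tested genes, too few to set its calls against those shares. Of 22 neuronal markers 12 were tested, with 0 called higher and 1 (Nefh) lower. Of 13 glial markers 6 were tested, with 0 called higher and 1 (S100b) lower (log2 difference -1.31, SE 0.22, edgeR adjusted p = 0.0052). Lymphocyte markers had 3 tested and 1 called higher, Cd28, a T cell co-receptor (2.82, SE 0.53, edgeR adjusted p = 0.008), while Cd3d, Cd3e and Cd3g had no row under their names. The summed level of the 4 lymphocyte markers with a named row was 33.6 to 384 in Sirt6-Ctrl and 1225 to 1907 in Sirt6-KD. Most of it was Cd28, with means of 191 and 1368, while Lck had 6.0 and 14.4, Foxp3 14.3 and 18.3, and Zap70 45.8 and 130.5, the last not called. Monocyte and macrophage markers had 3 tested and 0 called (summed level 412 to 1037 in Sirt6-Ctrl and 528 to 832 in Sirt6-KD), and Ptprc had no named row. Of the stratified epithelium markers other than Dsg3, 6 were tested, with Pkp1 called higher and Krt10 lower, and Krt5, Krt14 and Tp63 had no named row. Striated muscle, liver, germ-line and trophoblast markers had 5, 1, 1 and 3 tested and 0 called. Cd28 and S100b were called in all 8 fits with 1 library left out, Nefh in 3 and Krt10 in 2. The part of such cells in the 41 genes was not tested.

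By position, 31 of the 41 matched a RefSeq gene, and the nearest tested gene on either side gave 60 neighbours. Of these, 4 (6.67%) were called higher and 5 (8.33%) lower, beside 8.02% and 10.7% of all genes, with a median log2 difference of 0.15. The 4 were Nf1, Nid1, Nphp4 and Cables2. With 1 library left out, 0 to 8 neighbours were called higher, and each of the 4 was called in 3 or 4 of the 8 fits.

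RefSeq (GRCr8) gave the sequence around the start of 26 of the 41 genes, 250 bases before to 50 after. The CpG ratio, observed over expected, had a median of 0.574 in the 26 and 0.773 in the 9914 named genes with such a sequence. A ratio below 0.6 was found in 13 of the 26, in 26.6% of the named genes and in 63.1% of all RefSeq promoters. CpG-poor starts are common in tissue-restricted genes.

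**Figure D5:**
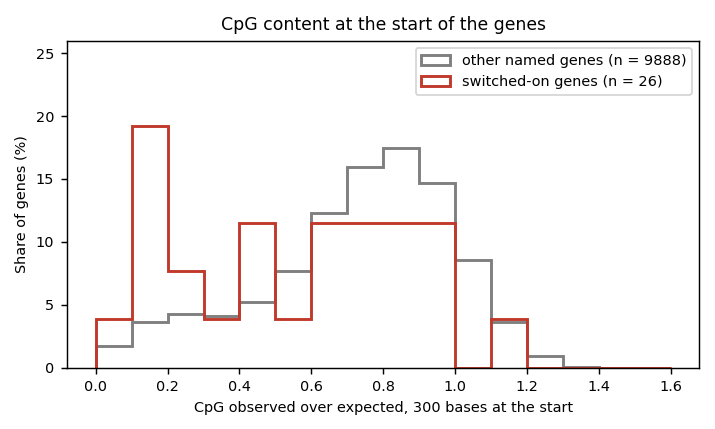
Histogram of the CpG observed over expected ratio in 300 bases at the gene start, as a share of genes (percent), for the 26 switched-on genes (red) and the other named genes (grey). The medians were 0.574 and, with the 26 included, 0.773.

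Letters known from transcription factors were searched on both strands of these 300 bases, and the matches are descriptions of sequence only. TGANTCA (AP-1) was in 2 of 26 (7.69%) and 4.84% of named genes, TATAAA in 3 (11.5%) and 6.72%, GGGCGG (GC box) in 11 (42.3%) and 63.4%, and TGACGTCA (CRE) in 1 (3.85%) and 3.16%. GGAATG (TEAD) was in 2 (7.69%) and 11.0%, TTCNNNGAA (GAS) in 3 (11.5%) and 6.51%, and the ISRE motif of the interferon response in 2 (7.69%) and 2.73%. Of all RefSeq promoters, 7.33% held TGANTCA, 14.3% TATAAA, 34.9% GGGCGG, 1.91% TGACGTCA, 13.9% GGAATG, 8.68% TTCNNNGAA and 3.77% the ISRE motif. The GC box was thus less frequent in the 26 than in named genes and more frequent than in all promoters. The 3 starts with a TATAAA are shown because they include the gene with no control read, Evi2b, and the only 2 with an AP-1 match, Orm1 and Spry3. Each line gives the 250 bases before the start, 5′ to 3′ on the gene's strand, with TGANTCA and TATAAA matches of either strand in capitals.
Evi2b (GRCr8, minus strand, chr10:64972278-64972527): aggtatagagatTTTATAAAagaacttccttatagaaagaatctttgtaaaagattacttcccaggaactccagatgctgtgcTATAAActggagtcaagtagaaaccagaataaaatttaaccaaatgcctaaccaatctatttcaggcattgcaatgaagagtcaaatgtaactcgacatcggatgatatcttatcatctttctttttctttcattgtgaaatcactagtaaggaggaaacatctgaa
Orm1 (GRCr8, plus strand, chr5:81788259-81788508): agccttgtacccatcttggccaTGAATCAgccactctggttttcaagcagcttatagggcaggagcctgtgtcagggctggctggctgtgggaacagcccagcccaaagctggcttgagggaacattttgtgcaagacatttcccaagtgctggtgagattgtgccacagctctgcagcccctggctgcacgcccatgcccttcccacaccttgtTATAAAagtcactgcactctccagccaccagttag
Spry3 (GRCr8, plus strand, chr12:21782007-21782256): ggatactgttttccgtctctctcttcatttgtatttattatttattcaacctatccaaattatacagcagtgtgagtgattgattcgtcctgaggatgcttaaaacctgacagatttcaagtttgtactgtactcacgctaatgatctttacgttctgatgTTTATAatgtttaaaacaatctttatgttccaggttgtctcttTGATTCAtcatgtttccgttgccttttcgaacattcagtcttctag
In Orm1 the TATAAA began 35 bases before the start, while in Evi2b the matches began 167 or more bases before it and in Spry3 the match, on the other strand, began 89 bases before it. The 3 genes had control counts of 0 in Sirt6-Ctrl 1.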

How the data were processed

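RNA-seq of 4 Sirt6-Ctrl and 4 Sirt6-KD cultures was used. Per the labels' processing notes, the submitters used Trimmomatic 0.36, STAR 2.5.2b, featureCounts of Subread 1.5.2, DESeq2 and Rnor_6.0; strandedness is not given in the sources used here. The authors deposited raw counts in 32975 rows, 92 of them spike-ins. The deposited normalised signal is those counts divided by 1 size factor per library, in the 13612 rows with over 80 reads in total; 13543 are named genes. The fold changes and p-values of the authors' own comparison, held in the same table, were not used.

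Genes were chosen by a mean below 10 in Sirt6-Ctrl and at least 20 in each Sirt6-KD library. The genes and all lists were chosen with earlier results of these data known. Every chosen gene is named but 1, which is not reported here and stays in the counts. Values per library are given for genes with at most 3 control reads, the 12 with the highest Sirt6-KD mean, the 3 on each side of each limit and members of the tissue lists. Genes outside the 41 are named from the lists or as relatives. Raw counts were filtered with filterByExpr, scaled by TMM and tested with edgeR 4.0.16 in R 4.3.3 (quasi-likelihood, two-sided, Benjamini-Hochberg over all rows). Each SE was derived as the absolute log2 difference before shrinkage, divided by the square root of the test's F statistic. Spike-ins stayed in the fit and out of gene counts. The script was tested on simulated data. Depth was 31994838 to 40124813 reads per library; intervals and floors cover counting error only. Gene names, positions and promoters were matched to RefSeq GRCr8 by symbol. Alternatives were other limits, scalings, filters, DESeq2 1.42.0 and each library left out; those without Sirt6-Ctrl 1 and 2, with every control library below 10, and for relatives and neighbours were added after seeing the data.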

Additional observations from a re-analysis of the deposited data

Results flagged for a closer look

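In 17 of the 41 genes 1 Sirt6-Ctrl library lay far above the other 3 (Dixon's ratio, the gap to the nearest library over the whole range, above its 95% critical value for 4 libraries), and in 0 genes did a Sirt6-KD library. The rate of about 1 in 20 groups that chance gives holds for values that were not selected. It cannot be applied here, because the same values chose the genes, near-zero counts give ratios near 1 and the floor of 20 trims low Sirt6-KD values. The ratios are therefore a description, and nothing is read from the contrast of the groups. Sirt6-Ctrl 3 was the high library in 8 genes, with a ratio of 1.0 in Ccr1, 0.979 in Il19, 0.959 in Orm1, 0.949 in Ajap1, 0.949 in AABR07037528.1, 0.912 in Rbpjl2, 0.910 in Dbil5 and 0.908 in P2ry4. Sirt6-Ctrl 4 was the high library in 8, with 1.0 in Sass6, 1.0 in Dsg3, 1.0 in Fam71e1, 0.910 in Armc2, 0.906 in Steap4, 0.899 in Ucp2, 0.868 in RF00004 and 0.831 in Ikzf2. Sirt6-Ctrl 1 was the high library in Rapgef5 (0.973). A control mean under 10 in these genes is therefore the mean of 1 raised library and 3 low ones.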

How the results depend on the processing

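The number of genes depended on the limits: 13 with a control mean below 5, 119 below 20, 134 with each Sirt6-KD library at least 10, 7 at least 40, and 8 with every control library below 10. Spike-in scaling gave 88 genes (27 of the 41), TMM-scaled counts 41 (38 shared) and unscaled counts 40 (36 shared). With 1 library left out it was 35 to 82, the highest without Sirt6-Ctrl 3 and 64 without Sirt6-Ctrl 4. Spike-in scaling raised the median log2 difference of all genes to 0.94 and gave 20 genes called higher and 4 lower, and 0 neighbours in either direction. Of the relatives it called 1 higher (Serpinb2, not called with TMM scaling of all libraries, named after its value was seen) and 0 lower, so none of the 20 relatives called with TMM scaling. With 1 library left out, 445 to 1699 genes were called higher and 700 to 1913 lower, 8 to 22 relatives higher and 2 to 5 lower, and 0 to 8 neighbours higher and 2 to 5 lower. Without the filter 3 relatives and 3 neighbours were called lower. Without Sirt6-Ctrl 1 and 2, 709 genes and 3 neighbours were called lower. DESeq2 called 1593 genes higher and 1724 lower. The causes were not tested. With upstream bases only, the GC box was in 10 of the 26 starts, TEAD in 1 and GAS in 2, and the other counts stayed as given. No paired analysis was possible because the labels and columns carry no number shared between the groups.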
